A study of Mus musculus with 6 samples.

Results

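The cell cycle and proliferation genes described here are 44 genes of DNA replication and mitosis. They were taken by gene name from the deposited count and FPKM tables of 54532 genes. FPKM is fragments per kilobase of gene, scaled to a size per library. The 44 genes comprise 16 genes of S phase, 27 genes of G2 and M phase (G2/M) and Ccnd1, which encodes the cyclin of G1 entry. All 44 were in the tables, and 43 passed the filter on low counts and were tested among 15816 genes. The one left out, the spindle checkpoint kinase gene Bub1, had between 2 and 12 counts per kidney. Kidneys came from male C57BL/6J mice, for which the labels give an age of 6 to 8 weeks and the study's methods an older range, euthanized 72 h after 1 injection of cisplatin at 18 mg/kg, a DNA-crosslinking drug that injures kidney tubules. The 3 WT mice and the 3 Trpm2-/- mice (numbered 1, 2 and 4) all received the drug, so each comparison is between genotypes under treatment. The Trpm2-/- allele, present in all cells, lacks a pair of exons encoding transmembrane domains of TRPM2, a calcium-permeable channel, and forms no functional channel.

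Cells that enter the cycle first make D-type cyclins and then, through E2F transcription factors, the genes of origin licensing, DNA synthesis and nucleotide supply. Genes of chromosome condensation, spindle assembly and cytokinesis follow in G2/M, when the DREAM complex no longer represses them and B-MYB and FOXM1 activate them. Kidney tubule cells rarely divide in the healthy adult, and surviving tubule cells re-enter the cycle after toxic injury, where arrest in G2/M has also been described.

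The promoters of both classes were searched for short motifs. G2/M promoters are known for the box bound by NF-Y (CCAAT) and the cell cycle homology region, CHR (TTTGAA or TTCGAA) through which DREAM and B-MYB complexes bind, and S phase promoters for the E2F motif (TTTCGCGC, TTTGGCGC or TTCCCGCC). These letters were searched on both strands in RefSeq promoter windows of GRCm38.p6, from 250 bases before to 50 after each start, and 35 of the 44 genes had a window. Among G2/M genes with a window, 17 of 22 (77.3%) held a CHR, against 2 of 13 S phase genes (15.4%) and 21.7% of the 27025 genes with a window. The CHR began within 50 bases of the start in 16 of those 17 G2/M genes. All 17 also held a CCAAT box in the same window. Both motifs together were thus in 17 of 22 G2/M genes (77.3%), 2 of 13 S phase genes (15.4%) and 8.61% of all genes. The CCAAT box, with or without a CHR, was in 19 of 22 G2/M genes (86.4%), 8 of 13 S phase genes (61.5%) and 41.1% of all genes. The E2F letters were in 6 of 13 S phase genes (46.2%), in 1 of 22 G2/M genes (4.55%), which was Cdk1, and in 3.39% of all genes. A match is a description of the sequence and not a binding site. The stretch from 180 bases before to 20 after the start is shown 5′ to 3′ for the 6 G2/M genes with a window whose log2 fold changes were the highest (none of which passed the test), for the G2/M gene of highest level (Kif23), for an S phase gene with E2F letters (Mcm6) and for the nucleotide synthesis genes Rrm2 and Tyms, with matched letters of any of these motifs in capitals.
Kif11, chr19:37376202-37376401, plus strand: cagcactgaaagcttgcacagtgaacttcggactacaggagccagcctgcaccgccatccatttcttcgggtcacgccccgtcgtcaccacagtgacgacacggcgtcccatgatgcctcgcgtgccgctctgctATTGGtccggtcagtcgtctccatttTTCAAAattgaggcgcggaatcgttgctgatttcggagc
Mki67, chr7:135716360-135716559, minus strand: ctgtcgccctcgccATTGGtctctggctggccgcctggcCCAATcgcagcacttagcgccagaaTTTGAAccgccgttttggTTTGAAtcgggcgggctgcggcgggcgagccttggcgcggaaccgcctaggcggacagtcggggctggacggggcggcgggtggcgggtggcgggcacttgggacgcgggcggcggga
Top2a, chr11:99024170-99024369, minus strand: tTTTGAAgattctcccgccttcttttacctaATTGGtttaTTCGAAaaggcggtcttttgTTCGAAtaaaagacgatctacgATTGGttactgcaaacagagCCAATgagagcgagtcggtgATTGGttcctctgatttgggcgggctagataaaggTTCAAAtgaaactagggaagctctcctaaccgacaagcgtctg
Ccnb1, chr13:100786467-100786666, minus strand: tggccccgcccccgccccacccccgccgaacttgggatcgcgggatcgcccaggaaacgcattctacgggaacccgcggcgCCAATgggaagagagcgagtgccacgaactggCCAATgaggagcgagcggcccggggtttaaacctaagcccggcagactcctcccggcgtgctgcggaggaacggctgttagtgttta
Cdk1, chr10:69352893-69353092, minus strand: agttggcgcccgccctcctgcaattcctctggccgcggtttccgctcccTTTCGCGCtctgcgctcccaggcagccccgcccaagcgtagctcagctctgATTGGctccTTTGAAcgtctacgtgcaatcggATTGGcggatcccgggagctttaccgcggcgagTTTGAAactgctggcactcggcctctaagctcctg
Prc1, chr7:80294271-80294470, plus strand: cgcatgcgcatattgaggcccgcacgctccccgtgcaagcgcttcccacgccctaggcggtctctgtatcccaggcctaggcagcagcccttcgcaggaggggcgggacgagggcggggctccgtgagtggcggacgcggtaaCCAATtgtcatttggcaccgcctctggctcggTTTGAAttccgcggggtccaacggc
Kif23, chr9:61946780-61946979, minus strand: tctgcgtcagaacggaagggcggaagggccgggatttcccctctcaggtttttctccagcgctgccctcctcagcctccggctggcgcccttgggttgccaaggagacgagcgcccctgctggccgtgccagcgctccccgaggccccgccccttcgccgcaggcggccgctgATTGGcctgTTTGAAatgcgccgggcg
Mcm6, chr1:128359686-128359885, minus strand: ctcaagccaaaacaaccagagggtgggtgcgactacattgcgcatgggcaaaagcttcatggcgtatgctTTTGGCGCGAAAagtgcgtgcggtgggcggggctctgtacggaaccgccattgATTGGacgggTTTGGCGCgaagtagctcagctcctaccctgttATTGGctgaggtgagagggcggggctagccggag
Rrm2, chr12:24708074-24708273, plus strand: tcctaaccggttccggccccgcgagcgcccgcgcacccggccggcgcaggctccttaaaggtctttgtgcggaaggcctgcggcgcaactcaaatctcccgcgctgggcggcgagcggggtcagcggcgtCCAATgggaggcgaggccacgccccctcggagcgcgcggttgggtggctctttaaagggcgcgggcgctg
Tyms, chr5:30073606-30073805, minus strand: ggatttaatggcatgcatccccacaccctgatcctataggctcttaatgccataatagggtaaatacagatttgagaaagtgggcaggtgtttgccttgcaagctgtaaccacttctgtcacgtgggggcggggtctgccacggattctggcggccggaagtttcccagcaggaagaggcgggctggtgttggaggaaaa
On the strand shown, a CCAAT box of the other strand reads ATTGG, and a CHR of the other strand reads TTCAAA. The Kif11, Prc1 and Kif23 stretches each hold 1 box and 1 CHR, while Top2a holds several of both. In Mki67 the CHR letters begin at positions -116 and -98 from the start, and the Ccnb1 window holds CCAAT boxes but no CHR letters. The Mcm6 stretch has E2F letters at 2 places, overlapping letters of the other strand at the first, and the Tyms stretch holds none of the letters searched.

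**Figure D1:**
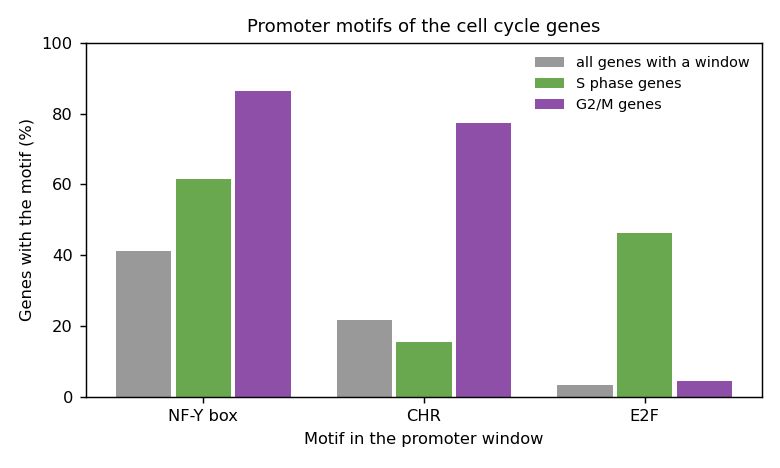
Share of genes (%) whose promoter window holds the NF-Y box, the CHR or the E2F letters, for all 27025 genes with a window (grey), 13 S phase genes (green) and 22 G2/M genes (purple). The CHR bar is 77.3% for G2/M genes and 15.4% for S phase genes, and the E2F bar is 46.2% for S phase genes and 4.55% for G2/M genes.

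Libraries held 14053307 to 17150089 counts on genes, and 3 counts correspond to 0.184 to 0.205 CPM (counts scaled to a fixed library size, on TMM-normalized library sizes), a floor that covers counting error only. Trpm2 itself had 5, 5 and 27 counts in WT kidneys and 10, 16 and 20 in Trpm2-/- kidneys (log2 fold change 0.36 with a standard error, SE, of 0.675 and adjusted p = 0.776), and these counts include exons that remain in the allele, so they are no check of the labels. Reads of the mitochondrial genome were 4.43% to 4.72% of counts in WT kidneys and 7.91%, 7.95% and 11.04% in Trpm2-/- kidneys 1, 2 and 4. All log2 fold changes are Trpm2-/- against WT from edgeR's quasi-likelihood test, p-values are adjusted by Benjamini-Hochberg over all genes tested, and a gene is called at an adjusted p under 0.05. In bulk kidney tissue, fewer cells of a type and less RNA per cell cannot be told apart.

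Of the 43 cell cycle genes tested, Tyms fell in Trpm2-/- kidneys and none of the other 42 passed the test. Thus 0 of 43 were called higher, against 4.74% of all genes tested, and 1 of 43 lower, against 7.28%. At an unadjusted p under 0.05 there were 9 of 43 above WT, against 14% of all genes, and 2 below, against 14.3%. The DESeq2 Wald test called 1 higher and 2 lower (against 6.92% and 9.13% of all genes in that fit). With limma-voom, 0 were called higher and 1 lower (against 4.41% and 7.28%). At the study's threshold, an absolute log2 fold change above 1 with a p under 0.05 taken here as unadjusted, 4 of 43 were higher (Kif11, Top2a, Mki67 and Aurkb), against 3.5% of all genes, and 0 lower, against 4.1%. Levels of the genotypes did not overlap for 10 genes with Trpm2-/- above WT (23.3% of the members, against 16.7% of all genes) and for 2 with Trpm2-/- below WT (4.65%, against 16.8%). The median log2 fold change was 0.17 over the S phase genes, 0.56 over the G2/M genes and 0.02 over all genes tested.

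**Figure D2:**
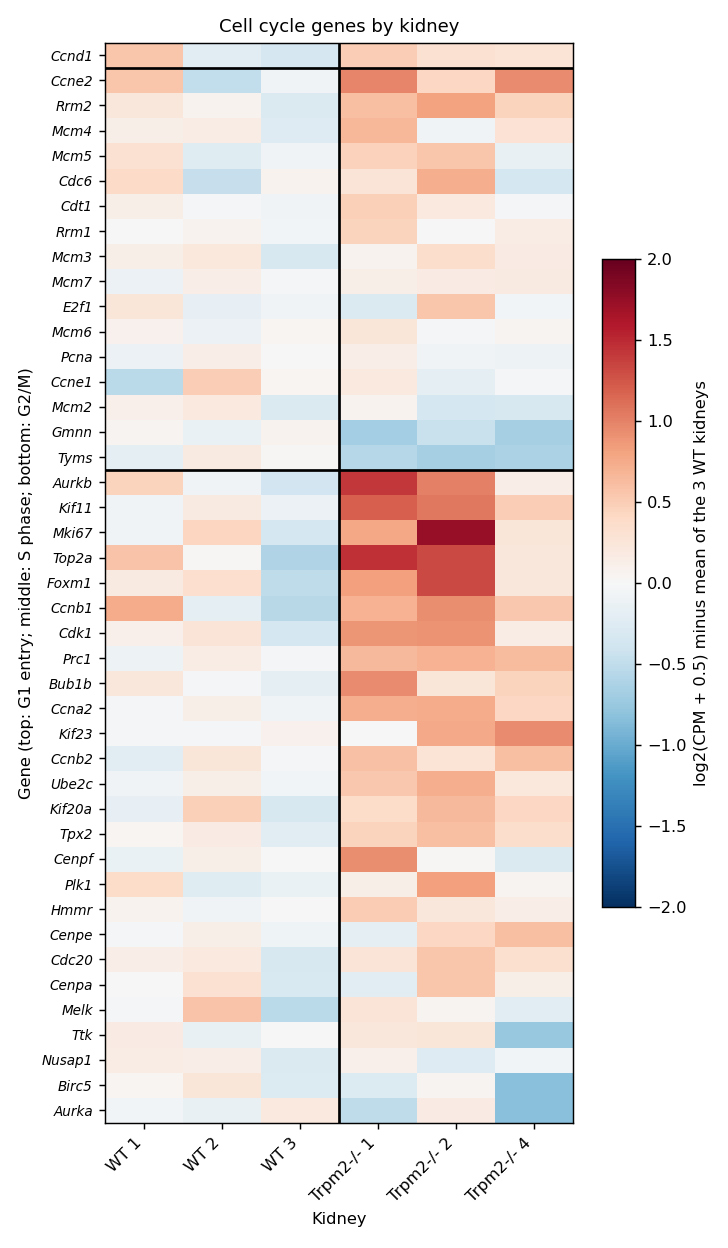
Heatmap of the 43 tested genes (rows, by phase and then by fold change) in the 6 kidneys (columns); the colour is log2(CPM + 0.5) minus the mean of the 3 WT kidneys. Most G2/M rows are red in Trpm2-/- kidneys 1 and 2 and paler in kidney 4, while the S phase rows are mixed, with Gmnn and Tyms blue in all 3.

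Median levels per length differed between the phases, while the ranges overlapped. Ccnd1 had the highest mean FPKM of all 44 genes (27.1), followed by Pcna (23.8), the sliding clamp of DNA polymerases, and Mcm7 (8.94), a helicase subunit. The S phase genes had a median of 3.08 FPKM, and 13 of 16 reached 1 FPKM. The G2/M genes had a median of 0.458 FPKM, and 4 of 27 reached 1 FPKM, namely Kif23 (2.39), Cdc20 (2.03), Ube2c (1.11) and Ccnb2 (1.02). The lowest was Cenpf, a kinetochore gene, at 0.050 FPKM. The median count per library was 219 for S phase genes and 36.5 for G2/M genes. The precision followed the same order, with a median standard error of the log2 fold change of 0.191 for S phase and 0.38 for G2/M genes. The 95% interval of the log2 fold change lay within -1 and 1 for 12 of the 16 S phase genes and for 2 of the 26 G2/M genes tested (Cenpa and Nusap1).

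Ccnd1 (chr7:144929931-144939925, minus strand) was at 184, 107 and 99.2 CPM in WT kidneys 1, 2 and 3 and at 176, 154 and 151 CPM in Trpm2-/- kidneys 1, 2 and 4. WT kidney 1 was the highest of the 6 and the other 2 WT kidneys were the lowest, so the groups overlapped. The log2 fold change was 0.30 (SE 0.222, adjusted p = 0.413), and without WT kidney 1 it was 0.63 (adjusted p = 0.0406). That was the only 1 of 17 alternative analyses that called Ccnd1, and its adjusted p reached 0.8058 in another. Of the exon bases of Ccnd1, 23.4% overlap a gene on the opposite strand, and the strandedness of the counting is not given in the sources used here.

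The S phase genes include the 6 subunits of the MCM2-7 helicase, none of which passed the test. Their summed level was 122, 126 and 109 CPM in WT and 138, 123 and 122 CPM in Trpm2-/- kidneys (ratio of means 1.07). Mcm7 (chr5:138164583-138172422, minus strand) was at 39.3, 46.9 and 42.0 CPM in WT and 46.4, 47.6 and 48.2 CPM in Trpm2-/- kidneys (log2 fold change 0.15, 95% interval -0.13 to 0.42). The lowest Trpm2-/- kidney lay just under the highest WT kidney. Mcm2 was at 29.5, 31.4 and 22.4 CPM in WT and 28.7, 21.5 and 21.9 CPM in Trpm2-/- kidneys (log2 fold change -0.21, 95% interval -0.61 to 0.20). Mcm3, Mcm4, Mcm5 and Mcm6 had log2 fold changes of 0.19, 0.33, 0.32 and 0.09, each with overlap between genotypes. For Mcm7 and Pcna, 13.2% and 13.8% of 75-base transcript windows also occur in other genes, which can split reads. For Pcna the other gene is Pcna-ps2. For Mcm7 they include Ap4m1, Mir25 and Mir93, which overlap it at the same locus, where 12.6% of its exon bases are shared with other genes.

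Pcna (chr2:132249162-132253314, minus strand) was at 60.3, 71.3 and 64.6 CPM in WT and 71.9, 61.9 and 61.0 CPM in Trpm2-/- kidneys. The ranges coincided almost entirely. Its log2 fold change was -0.01 with a 95% interval of -0.30 to 0.28. The licensing genes Cdt1 and Cdc6, which load the helicase, had log2 fold changes of 0.24 and 0.30 (for Cdc6 -0.0832 without Trpm2-/- kidney 2), and E2f1, the activator of the S phase genes, was at 4.996, 3.66 and 3.93 CPM in WT and 3.31, 6.35 and 3.99 CPM in Trpm2-/- kidneys (log2 fold change 0.11, adjusted p = 0.856). Trpm2-/- kidneys held both the lowest and the highest E2f1 level. The cyclin E genes, whose products open S phase, had log2 fold changes of -0.08 (Ccne1) and 0.87 (Ccne2, adjusted p = 0.18). For Ccne2, 17.4% of exon bases overlap Ints8 on the opposite strand.

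Of the 3 genes of deoxynucleotide supply, Tyms passed the test. Tyms (thymidylate synthase, which makes dTMP, chr5:30058202-30073617, minus strand) was at 22.9, 30.1 and 26.8 CPM in WT and 17.7, 16.5 and 16.8 CPM in Trpm2-/- kidneys. Every Trpm2-/- kidney was below every WT kidney, and the Trpm2-/- values lay close together. Tyms fell by 0.65 on the log2 scale (SE 0.154, adjusted p = 0.0271), a level 0.639 times that of WT. Without WT kidney 2, WT kidney 3 or Trpm2-/- kidney 4 it stayed lower by a similar size but was not called (adjusted p = 0.137, 0.115 and 0.0521). The call was also lost in limma on log2(FPKM + 1) and log2(FPKM + 0.1) (adjusted p = 0.0725 and 0.0647).

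Rrm2 (the regulated subunit of ribonucleotide reductase, which makes deoxynucleotides, chr12:24708241-24714146, plus strand) was at 16.2, 14.4 and 11.1 CPM in WT and 21.2, 24.4 and 18.9 CPM in Trpm2-/- kidneys. Every Trpm2-/- kidney was above every WT kidney. The log2 fold change was 0.63 (SE 0.190), and the adjusted p of 0.0602 missed the threshold. Rrm1, the large subunit of the same enzyme, had a log2 fold change of 0.22 (SE 0.173, adjusted p = 0.448), with overlap between genotypes.

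Gmnn (geminin, the inhibitor of CDT1 that prevents a new round of licensing, chr13:24751845-24761923, minus strand) was at 12.5, 10.9 and 12.6 CPM in WT and 7.34, 8.67 and 7.35 CPM in Trpm2-/- kidneys. All 3 Trpm2-/- kidneys were below all WT kidneys. This corresponded to a log2 fold change of -0.63 (SE 0.192), with an adjusted p of 0.0633. It was called by the DESeq2 Wald test (adjusted p = 0.0387). Over all 16 S phase genes, 11 log2 fold changes were above 0 (68.8%, against 51.6% of all genes tested). The summed level of these genes was 278, 293 and 263 CPM in WT and 311, 281 and 270 CPM in Trpm2-/- kidneys (ratio of means 1.03), with overlap between genotypes.

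**Figure D3:**
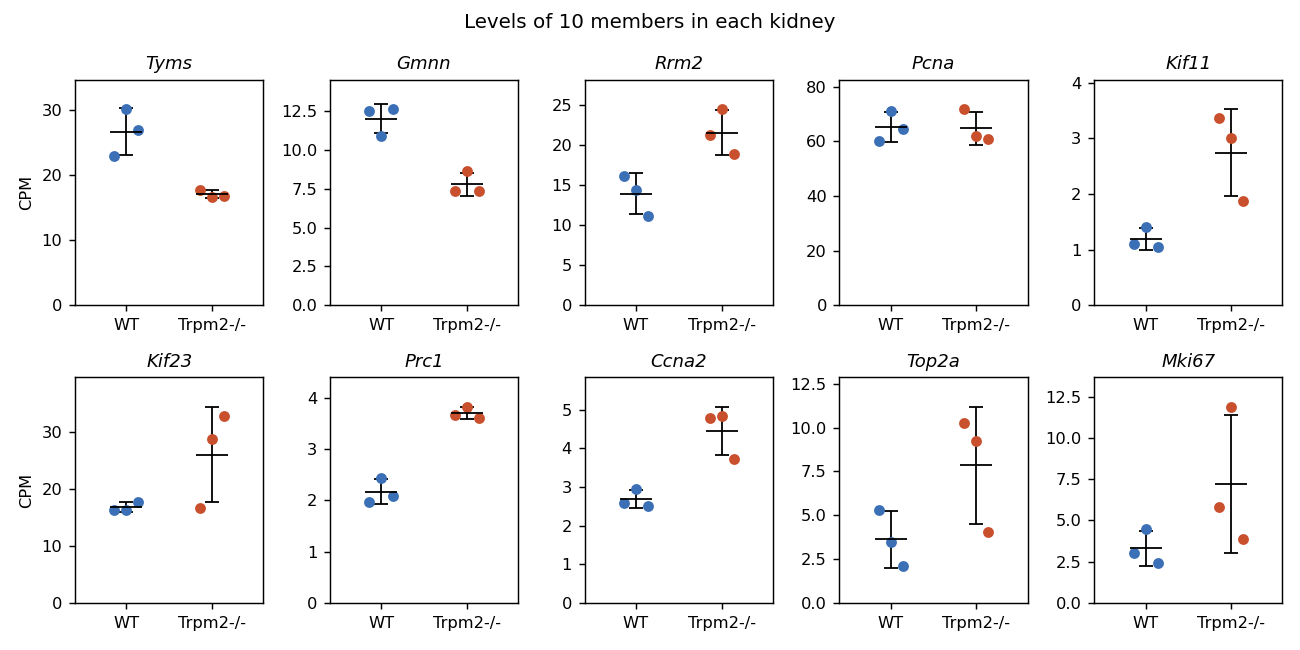
CPM on TMM-normalized library sizes in each kidney (dots) for 10 of the genes, with the mean (horizontal bar) and SD (error bar) of the 3 WT (blue) and 3 Trpm2-/- (orange) kidneys. Tyms and Gmnn sit lower in every Trpm2-/- kidney, Rrm2, Kif11, Prc1 and Ccna2 sit higher, and Pcna, Kif23, Top2a and Mki67 overlap.

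None of the 26 G2/M genes tested passed the test, and 21 had a log2 fold change above 0 (80.8%, against 51.6% of all genes). Genotypes did not overlap for 9 of them with Trpm2-/- above WT (34.6%, against 16.7% of all genes) and for 0 with Trpm2-/- below WT (against 16.8%). The proliferation marker Mki67 (chr7:135689784-135716361, minus strand) was at 3.02, 4.50 and 2.39 CPM in WT and 5.81, 11.9 and 3.86 CPM in Trpm2-/- kidneys. Trpm2-/- kidney 2 was the highest and kidney 4 lay below WT kidney 2. The log2 fold change was 1.12 (SE 0.429, adjusted p = 0.122), 0.55 without Trpm2-/- kidney 2 (adjusted p = 0.363) and 1.42 without Trpm2-/- kidney 4 (adjusted p = 0.0433).

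Top2a (topoisomerase II alpha, which untangles sister chromatids, chr11:98992943-99024189, minus strand) was at 5.30, 3.47 and 2.09 CPM in WT and 10.3, 9.22 and 4.05 CPM in Trpm2-/- kidneys. Trpm2-/- kidneys 1 and 2 were the highest, and kidney 4 lay within the WT range. Top2a had a log2 fold change of 1.11 (SE 0.423, adjusted p = 0.118), and 1.44 without Trpm2-/- kidney 4 (adjusted p = 0.0376). Over 17 alternative analyses Top2a was called in 2, this one and the fit without a filter. Its log2 fold change ranged from 0.3755 to 1.491 over them, with adjusted p up to 0.3365. Foxm1, the transcription factor that activates G2/M genes, was at 1.97, 2.25 and 1.04 CPM in WT and 3.37, 4.98 and 2.05 CPM in Trpm2-/- kidneys, again with kidney 4 inside the WT range (log2 fold change 0.98, adjusted p = 0.171).

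The motor and spindle genes held the smallest p-value of the G2/M list. Kif11 (the kinesin that separates spindle poles, chr19:37376403-37421859, plus strand) was at 1.11, 1.41 and 1.04 CPM in WT and 3.37, 3.00 and 1.87 CPM in Trpm2-/- kidneys. All 3 Trpm2-/- kidneys were above all WT kidneys, at 30 to 55 counts against 17 to 22. Kif11 had a log2 fold change of 1.20 (SE 0.376, 95% interval 0.36 to 2.05, adjusted p = 0.0675), and it was called without Trpm2-/- kidney 4 (1.43, adjusted p = 0.0385). Over the 17 alternatives Kif11 was called in 2, this one and the fit with library totals only. Its log2 fold change ranged from 0.301 to 1.428 over them, with adjusted p up to 0.2393. Prc1, which bundles the microtubules of the central spindle, was at 1.97, 2.44 and 2.09 CPM in WT and 3.67, 3.82 and 3.61 CPM in Trpm2-/- kidneys, without overlap (log2 fold change 0.77, adjusted p = 0.111). Of its exon bases, 11.1% overlap Rccd1 on the opposite strand. The spindle assembly factor gene Tpx2 also did not overlap (log2 fold change 0.51, adjusted p = 0.224), nor did Hmmr, which encodes a spindle-associated hyaluronan receptor (0.43, adjusted p = 0.51).

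Kif23 (the kinesin of the cytokinetic midzone, chr9:61915905-61946774, minus strand) stood apart from this order. It was at 16.3, 16.4 and 17.8 CPM in WT and 16.6, 28.7 and 32.8 CPM in Trpm2-/- kidneys 1, 2 and 4. Kidney 1 was at the WT level and kidney 4 was the highest, whereas kidney 4 was the lowest Trpm2-/- kidney for 18 of the 26 G2/M genes. The log2 fold change was 0.63 (SE 0.233, adjusted p = 0.11), and without Trpm2-/- kidney 1 it was 0.87 (adjusted p = 0.0149). Over the 17 alternatives Kif23 was called in 2, this one and the fit without a filter. Its log2 fold change ranged from 0.42 to 0.8697 over them, with adjusted p up to 0.3792. The other G2/M genes that were highest in kidney 4 were Ccnb2 and Cenpe.

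Among cyclins and kinases that drive mitosis, Ccna2 was at 2.59, 2.96 and 2.52 CPM in WT and 4.77, 4.85 and 3.74 CPM in Trpm2-/- kidneys, without overlap (log2 fold change 0.73, SE 0.278, adjusted p = 0.121). Of its exon bases, 12.5% overlap Exosc9 on the opposite strand. Its partner Cdk1 was at 2.22, 2.51 and 1.47 CPM in WT and 4.16, 4.23 and 2.30 CPM in Trpm2-/- kidneys, where kidney 4 lay inside the WT range (log2 fold change 0.79, adjusted p = 0.195). The B-type cyclin genes Ccnb1 and Ccnb2 had log2 fold changes of 0.86 (adjusted p = 0.319) and 0.62 (adjusted p = 0.29), the latter without overlap, and 18.9% of the transcript windows of Ccnb1 occur in other genes, pseudogenes included.

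Neither Aurora kinase gene passed the test. Aurkb, of the chromosomal passenger complex, was at 1.05, 0.578 and 0.368 CPM in WT and 2.51, 1.78 and 0.747 CPM in Trpm2-/- kidneys, the largest fold change among the members (log2 1.32, SE 0.564, adjusted p = 0.159) at 6 to 41 counts per library and with overlap. Aurka, the kinase of the spindle poles, had a log2 fold change of -0.42 (adjusted p = 0.521), and Birc5, which encodes survivin in the same complex as AURKB, one of -0.38 (adjusted p = 0.529). Plk1, a kinase of mitotic entry, and Melk had log2 fold changes of 0.43 and -0.03.

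Among checkpoint and exit genes, Cdc20, the activator of the anaphase-promoting complex, was at 4.07, 4.24 and 2.82 CPM in WT and 4.47, 5.599 and 4.67 CPM in Trpm2-/- kidneys (log2 fold change 0.40, adjusted p = 0.385). Ube2c, a ubiquitin-conjugating enzyme of the same complex, was at 2.47, 2.89 and 2.52 CPM in WT and 4.04, 4.64 and 3.11 CPM in Trpm2-/- kidneys (0.58, adjusted p = 0.231). Neither overlapped between genotypes, and 22.8% of the exon bases of Ube2c overlap Tnnc2 on the opposite strand. The checkpoint gene Bub1b also did not overlap (0.74, adjusted p = 0.251), whereas Ttk, at 2 to 12 counts, had a log2 fold change of -0.07 with an SE of 0.631. Bub1, which was not tested, was at 0.555, 0.514 and 0.123 CPM in WT and 0.551, 0.819 and 0.685 CPM in Trpm2-/- kidneys, with overlap. The kinetochore genes Cenpa, Cenpe and Cenpf had log2 fold changes of 0.19, 0.41 and 0.50 (for Cenpf -0.23 without Trpm2-/- kidney 1, and for Cenpa -0.068 without Trpm2-/- kidney 2), Kif20a, a kinesin of cytokinesis, one of 0.54 and Nusap1, of spindle microtubules, one of -0.08, all with overlap. Of the exon bases of Kif20a, 29.3% overlap Cdc23 on the opposite strand.

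**Figure D4:**
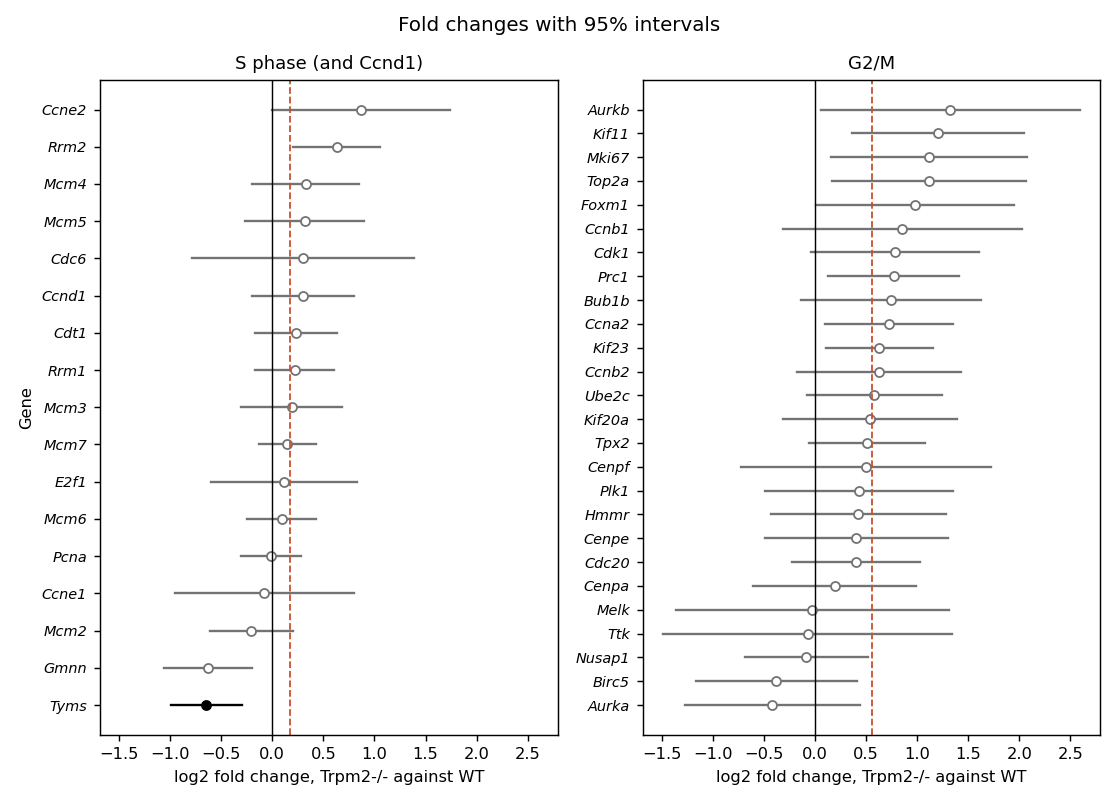
Log2 fold change (Trpm2-/- against WT, horizontal axis) with its 95% interval for the S phase genes with Ccnd1 (left) and the G2/M genes (right); the filled black point is the gene with adjusted p under 0.05 and the dashed line is the median of the phase (0.17 over the 16 S phase genes, 0.56 over the 26 G2/M genes). Intervals are wider on the right, and Tyms is the only filled point.

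Across kidneys, the G2/M genes varied within each genotype as well as between them. Trpm2-/- kidney 2 was the highest of the 6 for 13 of the 26 genes, kidney 1 for 6 and kidney 4 for 3, and WT kidney 3 was the lowest for 15. The median deviation from the WT mean, in log2 units, was 0.52, 0.63 and 0.22 in Trpm2-/- kidneys 1, 2 and 4 and 0.02, 0.13 and -0.20 in WT kidneys 1, 2 and 3. Summed over the 27 genes, the level was 73.0, 75.9 and 60.6 CPM in WT (69.8 ± 8.18, SD, n = 3) and 97.9, 121 and 93.2 CPM in Trpm2-/- kidneys (104 ± 15.01, SD, n = 3), a ratio of means of 1.49. The groups did not overlap. Kif23 alone made up 16.3 to 17.8 CPM of the WT sums, and without it the sums were 56.7, 59.6 and 42.8 CPM in WT and 81.3, 92.5 and 60.4 CPM in Trpm2-/- kidneys (ratio 1.47), where kidney 4 lay just above WT kidney 2.

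**Figure D5:**
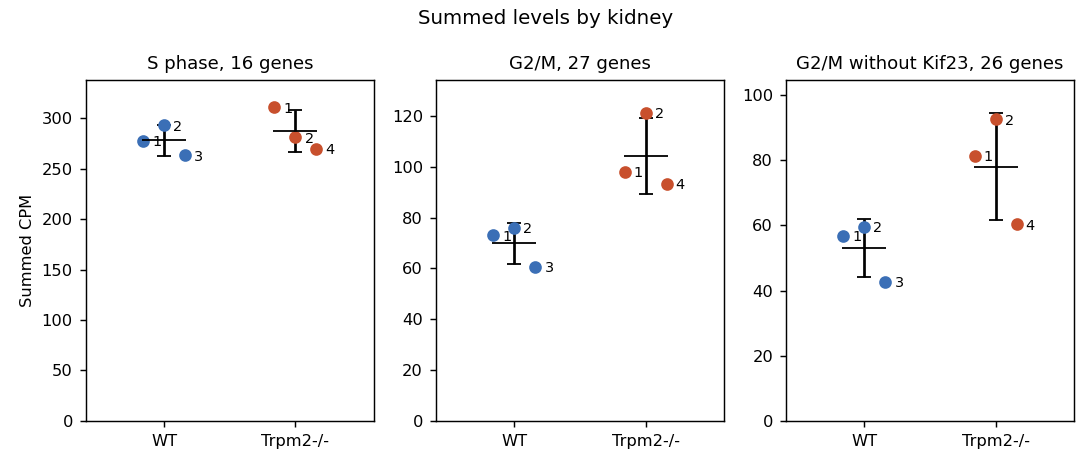
Summed CPM of the S phase genes, the G2/M genes and the G2/M genes without Kif23 in each kidney (dots, numbered by mouse), with mean and SD bars for the 3 WT (blue) and 3 Trpm2-/- (orange) kidneys. The S phase sums overlap at 263 to 311 CPM, and the G2/M sums reach 60.6 to 75.9 CPM in WT and 93.2 to 121 CPM in Trpm2-/- kidneys.

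Genes of the same pathways outside the 44 were taken from lists compiled from general knowledge. Of 52 other mitosis genes tested, 4 rose and 2 fell (against 4.74% and 7.28% of all genes), with a median log2 fold change of 0.55 and 44 above 0 (84.6%, against 51.6% of all genes). The genes that rose were G2e3 (1.04, adjusted p = 0.0079), a ubiquitin ligase gene, Hjurp (0.52, adjusted p = 0.0224), the chaperone of centromeric histone CENP-A, Aspm (2.07, adjusted p = 0.0233), of the spindle poles, and Iqgap3 (1.602, adjusted p = 0.0382). Pttg1, which encodes securin, was at 67.5, 72.7 and 81.3 CPM in WT and 40.7, 43.97 and 39.7 CPM in Trpm2-/- kidneys, and fell by 0.83 on the log2 scale (adjusted p = 0.00458). Spc25, an outer kinetochore gene, fell by 0.70 (adjusted p = 0.0148).

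Of 48 other replication genes tested, 1 rose, Atad2 (0.84, adjusted p = 0.0317), and 0 fell (against the same 4.74% and 7.28%), with a median of 0.14. At an unadjusted p under 0.05 there were 6 above and 2 below WT (against 14% and 14.3% of all genes), among them the checkpoint adaptor gene Clspn (1.62, adjusted p = 0.0803). Uhrf1 and Blm had log2 fold changes of 0.54 and 1.09 (adjusted p = 0.104 and 0.115).

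Of the 12 other G1 genes, 3 rose and 1 fell (against 4.74% and 7.28% of all genes). Myc (0.65, adjusted p = 0.00981), Cdk6 (0.75, adjusted p = 0.015) and Cdk2 (0.51, adjusted p = 0.0454) rose, and Ccnd3 (-0.73, adjusted p = 0.0196) fell. Ccnd3, a D-type cyclin gene like Ccnd1, was at 107, 105 and 103 CPM in WT and 56.3, 54.0 and 79.1 CPM in Trpm2-/- kidneys. E2f3 had a log2 fold change of 0.55 (adjusted p = 0.0778). None of 19 tested CDK inhibitor, pocket protein and DREAM genes was called in either direction by edgeR. Of these, 16 had a log2 fold change above 0 (84.2%, against 51.6% of all genes), with a median of 0.20. At an unadjusted p under 0.05 there were 0 above and 2 below WT, Lin52 (-0.50) and Cdkn2d (-0.58), against 14% and 14.3% of all genes. Cdkn1a, which encodes the p53-induced inhibitor p21, was at 795, 979 and 742 CPM in WT and 1163, 1254 and 881 CPM in Trpm2-/- kidneys (0.39, adjusted p = 0.201), with overlap. Of 21 genes of the ubiquitin ligases APC/C and SCF, 0 were called by edgeR, and 4 above and 1 below WT had an unadjusted p under 0.05 (against 14% and 14.3% of all genes), led by Anapc13 (-0.76, adjusted p = 0.0699) and Cdc27 (0.46, adjusted p = 0.0854).

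Markers of kidney and other cells moved with genotype beside these genes, and their part in the results was not tested. The counts of markers called below stand against 4.74% of all genes called higher and 7.28% called lower. All 10 proximal tubule markers fell, and their sum was 10099 to 12727 CPM in WT and 3626 to 5251 CPM in Trpm2-/- kidneys. Of 9 markers of injured tubule, Sox9 (1.16, adjusted p = 0.0115) and Krt20 (0.79, adjusted p = 0.0189) rose, and the sum was 17612 to 19552 CPM in WT and 19570 to 27701 CPM in Trpm2-/- kidneys. All 9 had log2 fold changes above 0 (100%, against 51.6% of all genes). Genotypes did not overlap for 3 of the 9 above WT and 0 below (33.3% and 0%, against 16.7% and 16.8%). Of 10 macrophage markers, C1qa and C1qc fell, and the sum was 112 to 158 CPM in WT and 93.9 to 146 CPM in Trpm2-/- kidneys. Of these 10, 3 had log2 fold changes above 0 (up to 1.35), none of them called. Genotypes did not overlap for 1 macrophage marker above WT and 0 below (against 16.7% and 16.8% of all genes). The sums of the 6 endothelial markers (81.3 to 118 CPM in WT and 53.2 to 197 CPM in Trpm2-/- kidneys) and of the 6 fibroblast markers (63.0 to 96.2 and 47.3 to 166 CPM) were highest in Trpm2-/- kidney 4, with 0 of 6 called in each. The T cell, B and plasma cell, neutrophil and erythroid lists each summed to at most 21.3 CPM in any kidney, with Hbb-bt at 0 in all 6, and none of those tested was called. Of 5 tested markers of the thick ascending limb and distal tubule 1 fell (Umod), of 6 of the collecting duct 2 fell (Aqp2 and Aqp3), and of 3 of the urothelium 1 fell (Upk3a).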

How the data were processed

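RNA-sequencing was done for the study on kidney tissue of 3 WT and 3 Trpm2-/- mice. RNA was isolated with Trizol and libraries were made with a NEBNext Ultra II kit. The count values are whole reads per gene as deposited, without normalization. The FPKM values were computed by the authors from counts, gene length and a size per library that did not follow the total counts. WT kidney 1 had fewer counts than WT kidney 2 (15991951 against 16775965). The size implied by its FPKM was larger (18487100 against 17780200). The submitters' processing notes name HISAT2 and StringTie without versions or roles, and the build mm9. The gene positions in the deposited tables equal GRCm38 (GENCODE release M21) for 53585 of 54495 genes matched by identifier and for 43 of the 44 members, so positions are given as GRCm38. Counting tool and strandedness are not given in the sources used here.

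Genotypes were compared on counts with edgeR 4.0.16 in R 4.3.3 (default filterByExpr, TMM, quasi-likelihood test on genotype, two-sided, Benjamini-Hochberg over 15816 genes). The SE of a log2 fold change is its size over the root of the F value. CPM values use TMM-normalized library sizes, and ranges of counts and levels are raw spreads over kidneys. The labels name separate kidneys by number. The p-values set the genotype difference against the spread between these samples, an estimate that borrows from all genes tested. Alternatives were other normalizations and filters, DESeq2 1.42.0, limma 3.58.1 (voom, log2(FPKM + 1) and log2(FPKM + 0.1)), the replicate number as a block, leaving out each mouse, the study's threshold, and, added after seeing the data, leaving out genes of the mitochondrial genome. Scripts were tested on simulated data.

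The 44 members, their split by phase and the other lists were chosen with earlier results of these data known, from general knowledge. Values in every kidney are given for called members, for the 3 members of highest FPKM in each phase, and for Mki67, Top2a, Pcna, Mcm2, Ccnd1, E2f1 and Foxm1. Other members with such values were chosen after their values were seen. From each other list, up to 5 genes with the smallest p may be named. One gene that this covers is not reported here. Promoter sequences come from RefSeq (GRCm38.p6).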

Additional observations from a re-analysis of the deposited data

How the results depend on the processing

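Over 17 alternatives, 34 of the 43 members kept one sign, and Tyms was called in 11. Members called higher numbered 0 in the reported analysis, 2 with library totals only (Rrm2 and Kif11), 4 without a filter (Kif23, Rrm2, Top2a and Mki67), 1 by DESeq2 (Rrm2) and 4 at the study's threshold. Leaving out 1 mouse gave 0 to 3, with Ccnd1 added without WT mouse 1, Kif23 without Trpm2-/- mouse 1, and Kif11, Top2a and Mki67 without Trpm2-/- mouse 4. Of all genes, 4.74% were called higher in the reported analysis, 7.21% with library totals only and 4.37% without a filter. That share was 6.92% by DESeq2, 3.5% at the study's threshold and 0.979% to 5.03% with 1 mouse left out. Members called lower numbered 1 in the reported analysis, 2 by DESeq2 (Tyms and Gmnn), 0 at the study's threshold and 0 to 1 with 1 mouse left out. Of all genes, 7.28%, 9.13%, 4.1% and 2.88% to 7.62% were called lower, in that order. In limma on FPKM, Gmnn was called in place of Tyms. Numbers 1 and 2 occur in both genotypes, and no label ties the mice that share a number. The correlation of deviations was 0.119 for number 1 and 0.0057 for number 2. Between mice of unlike number it was -0.043 (WT 1 with Trpm2-/- 2) and 0.175 (WT 2 with Trpm2-/- 1). With so few mice these values cannot settle whether the numbers pair them. With the replicate block 0 members were called lower, against 4.18% of all genes (Tyms -0.62, adjusted p = 0.147). The G2/M median of 0.56 was 0.20 in limma on log2(FPKM + 1), since the pseudocount of 1 exceeds most of these levels, and lay between 0.50 and 0.65 with 1 mouse left out. With library totals only, the median of all genes moved to 0.12. The cause of the other changes was not tested.

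The other 9 members took the other sign under some alternative. These were, with the upper quartile, Melk (0.0036) and Pcna (0.0251); with library totals only, Nusap1 (0.0161), Ttk (0.0229), Melk (0.0772), Ccne1 (0.0382) and Pcna (0.0935); with limma-voom, Melk (0.16) and Ccne1 (0.0075); in limma on FPKM, Melk (0.00027 and 0.0615 for pseudocounts of 1 and 0.1); with the replicate block, Ttk (0.40), Ccne1 (0.0273) and Pcna (0.0246); and without mitochondrial genes, Pcna (0.0040). With 1 mouse left out, values ranged from -0.38 to 0.41 (Ttk), -0.42 to 0.61 (Melk), -0.35 to 0.26 (Ccne1), -0.0927 to 0.0527 (Pcna), -0.23 to 0.84 (Cenpf), -0.068 to 0.40 (Cenpa), -0.23 to 0.0118 (Nusap1), -0.0832 to 0.61 (Cdc6) and -0.20 to 0.30 (E2f1). The median count per library was 36.5 for G2/M genes, and their median SE was 0.38.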
